A study of Homo sapiens with 4 samples.

Results

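The genes described here are 7 transcripts of the route from bradykinin to prostaglandin E2 (PGE2): the bradykinin receptors BDKRB1 and BDKRB2, the phospholipase PLA2G4A, the cyclooxygenases PTGS1 and PTGS2, the PGE2 synthase PTGES and the PGE2 receptor PTGER4. They were chosen by name from the 43622 genes of the deposited table, with earlier results of these data known, and their levels and differences are therefore given as a description with no test. RNA-seq had been carried out on PC3, an established cell line of human prostate adenocarcinoma, in 4 conditions with 3 libraries each. Ctrl was PC3 cells with the vehicle DMSO and MLN was PC3 cells with 1 µM MLN4924, a drug that blocks NEDDylation. The shARF and Both conditions were PC3 cells with an shRNA against p14ARF (PC3-shp14ARF) and received DMSO and 1 µM MLN4924, in that order. All cells were collected after 3 days, to ask which responses to the drug depend on p14ARF. The shRNA was delivered by a retrovirus and the cells were selected with hygromycin. No control hairpin is named for the cells of Ctrl and MLN, so the loss of p14ARF, the hairpin and the handling of the transduced cells cannot be told apart. The series' design text speaks of a knockout and a millimolar dose, where the sample labels and the paper's methods give an shRNA and a micromolar one.

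Kinins are short peptides cut from kininogen. BDKRB2 binds bradykinin itself and is present at rest in many cells, and BDKRB1 binds the forms that have lost their last arginine and is known as a receptor induced by inflammation and injury. Signalling from either receptor raises calcium, which brings the cytosolic phospholipase PLA2G4A to membranes, where it releases arachidonic acid. The cyclooxygenases PTGS1 (COX-1) and PTGS2 (COX-2) turn it into prostaglandin H2, the synthase PTGES makes PGE2 from that, and PGE2 acts on receptors among which PTGER4 (EP4) raises cyclic AMP. In prostate and other epithelial cancers, PGE2 is known for effects on growth and inflammation.

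The receptor genes are neighbours on chromosome 14 of the GRCh38 build. In the GENCODE annotation BDKRB2 lies at chr14:96204679-96244166 and BDKRB1 at chr14:96256210-96268967, both on the plus strand with 3 exons in the canonical transcript, 12043 bp apart with 0 genes wholly between them. A predicted protein-coding gene overlaps part of each on the same strand, so reads of such a joint transcript could not be told apart from theirs. PTGS2 and PLA2G4A are neighbours too, on chromosome 1 at 186671791 to 186680922 (minus strand, 10 exons) and 186828949 to 186988981 (plus strand, 18 exons), 148026 bp apart with 0 genes wholly between. The promoters are shown as a description, and their part in the levels of these genes was not tested. Promoter sequence, 250 bases before the start, was taken from RefSeq (GRCh38.p14) for the 7 genes, and the motifs searched in it on both strands were chosen after the sequences were seen. The longest stretch that the BDKRB1 and BDKRB2 promoters share is 11 bases long and begins at positions −51 and −46 from the start. It was found in 18 of 35116 promoters (0.0513%), each taken as the same 250 bases before a RefSeq start. Any given stretch of 11 bases is rare by its length, so this small share is not a test of the stretch. Positions count from the RefSeq starts, which are 96256210 for BDKRB1, the same as in GENCODE, and 96204839 for BDKRB2. The GENCODE start of BDKRB2 lies further upstream, so its stretch falls inside the gene as GENCODE draws it. The 30 bases around it are printed below, plus strand, with the shared stretch in capitals.
BDKRB1, chr14:96256149-96256178: aatccccacaATGACATCACTggagcggag
BDKRB2, chr14:96204783-96204812: caggaggctgATGACATCACTacccagccc

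This stretch holds the motif TGACNTCA, which is like the site bound by CREB and ATF factors and which 6.87% of the promoters hold. The PLA2G4A promoter held it too, at position −150, and those of PTGS1, PTGS2, PTGES and PTGER4 did not. The motif TATAAA, in 10.7% of promoters, was at position −32 in that of PTGS2. In the upstream PTGS1 promoter it was at −208 on the minus strand, and the downstream PTGS1 promoter did not hold it. The kappaB motif, in 9.96%, was present in that of PTGER4, and the motif TTNNGCAA, in 9.05%, in that of PTGS2. The motif TGANTCA, in 6.57%, was found in none of those of the 7 genes. These matches are a description of the letters and not of binding. The whole 250 bases of the BDKRB1 and PLA2G4A promoters are given with TGACNTCA in capitals, both on the plus strand.
BDKRB1, chr14:96255960-96256209: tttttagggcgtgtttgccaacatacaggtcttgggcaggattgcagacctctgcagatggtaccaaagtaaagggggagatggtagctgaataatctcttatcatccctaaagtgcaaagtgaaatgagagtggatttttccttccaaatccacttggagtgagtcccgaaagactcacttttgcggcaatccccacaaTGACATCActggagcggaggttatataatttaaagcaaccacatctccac
PLA2G4A, chr1:186828699-186828948: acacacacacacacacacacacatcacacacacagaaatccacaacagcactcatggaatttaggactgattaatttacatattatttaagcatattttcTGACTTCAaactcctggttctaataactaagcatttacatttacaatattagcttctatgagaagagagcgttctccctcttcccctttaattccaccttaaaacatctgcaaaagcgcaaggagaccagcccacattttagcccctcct

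The values are transcripts per 1000000 (TPM), which the authors scaled to the same total in each library and which correct for transcript length, so levels of different genes can be compared. TPM carries no read depth, and the number of reads behind a value is unknown. Log2 differences were taken on log2(TPM + 0.1), which makes changes of low genes look smaller, for the 19932 genes that averaged at least 0.1 TPM across the 12 libraries. Of the 7 genes, 6 passed this filter and PTGS1 did not. The transcript of CDKN2A, the p14ARF gene, was at 183 ± 6.49 TPM (SD, n = 3) in Ctrl and 59.3 ± 1.47 in shARF (log2 fold change −1.63, limma adjusted p = 2.24e-05), so it was lowered and not removed. Values per gene do not separate p14ARF from p16, the other product of CDKN2A. In Both it was at 47.5 ± 6.40 TPM against 118 ± 16.4 in MLN (CDKN2A, adjusted p = 0.00188). The epithelial genes KRT8, KRT18, KRT19 and EPCAM were present in each library, with a summed level of 892 to 985 TPM in Ctrl, 428 to 490 in MLN, 1118 to 1259 in shARF and 426 to 442 in Both, and KLK3, which PC3 cells are known to lack, was listed at 0 in each of the 12. Of the 3 endothelial genes looked at, VWF stayed at or below 0.0301 TPM and CDH5 at or below 0.327, while the summed level of the 3, nearly all PECAM1, was 11.03 to 12.55 TPM in Ctrl and 0.679 to 1.03 in MLN. It was 1.88 to 1.97 TPM in shARF and 0.160 to 0.262 in Both. Like the bradykinin receptors, this sum was lower in MLN, shARF and Both than in Ctrl, and its part in their values was not tested. Of 5 fibroblast genes, DCN stayed at or below 0.126 TPM and PDGFRB at or below 0.824. Over the 12 libraries COL1A1 ran from 3.56 to 19.7 TPM, COL1A2 from 1.40 to 59.1 and PDGFRA from 0.246 to 9.28. The sum of the 5 was 22.1 to 24.9 TPM in Ctrl, 21.9 to 24.3 in MLN, 54.6 to 65.2 in shARF and 10.5 to 11.6 in Both. Its part and that of the epithelial sum were not tested either. In bulk RNA, fewer cells that hold a transcript and less of it in each cell cannot be told apart.

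BDKRB1 and BDKRB2 had the lowest log2 differences of the 6 members in MLN vs Ctrl and in shARF vs Ctrl. BDKRB1 was at 44.6, 41.2 and 44.01 TPM in the Ctrl libraries and at 1.98, 3.22 and 3.55 in MLN. In shARF it was at 0.685, 0.901 and 0.403 TPM, and in Both at 0.217, 0.385 and 0.106. The Ctrl libraries stood far above all others, and the order Ctrl, MLN, shARF, Both had no overlap between neighbouring conditions, although the lowest shARF and the highest Both library were close and overlapped with median-of-ratios scaling. BDKRB2 was at 8.61, 7.80 and 8.08 TPM in Ctrl and at 0.496, 0.747 and 0.661 in MLN. In shARF it was at 0.0460, 0.114 and 0.185 TPM, and in Both at 0.0656, 0.0444 and 0.0213. Its order was the same, but shARF and Both overlapped.

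**Figure D1:**
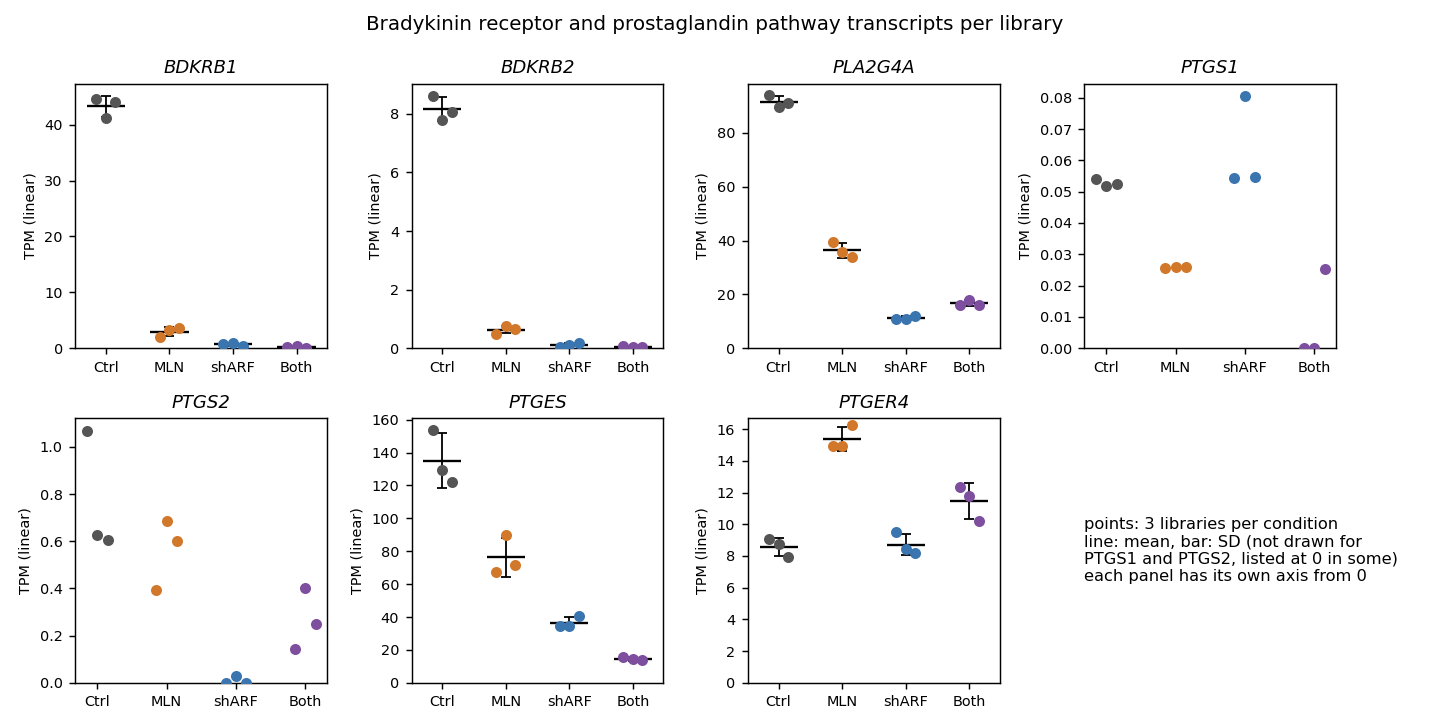
TPM of the 7 genes (linear axes from 0, one panel per gene) in each library of Ctrl, MLN, shARF and Both, with points for the 3 libraries and, except for PTGS1 and PTGS2, a line for the mean and a bar for the SD. BDKRB1 stood at 41.2 to 44.6 TPM in Ctrl and at 3.55 or less in the other conditions, while PTGER4 was highest in MLN, at 14.9 to 16.3 TPM.

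After MLN4924 in PC3 cells the mean of BDKRB1 was 14.8-fold lower, from 43.3 ± 1.82 to 2.92 ± 0.829 TPM (SD, n = 3), and that of BDKRB2 12.9-fold lower, from 8.16 ± 0.409 to 0.635 ± 0.128 TPM. On the log2 scale the differences were −3.89 (standard error 0.21) for BDKRB1 and −3.51 (standard error 0.16) for BDKRB2. With p14ARF depleted and no drug, the mean TPM of BDKRB1 was 65.3-fold and that of BDKRB2 71.0-fold below Ctrl. The log2 differences, which the pseudocount makes smaller, were −5.88 (standard error 0.26) and −5.32 (standard error 0.27), and over the alternatives that of BDKRB2 ran from −6.21 to −3.04 and that of BDKRB1 from −6.11 to −4.75. Both receptors were thus lower in shARF than in MLN. Among the 19932 genes, the log2 difference of BDKRB1 ranked 31 from the lowest in shARF vs Ctrl and 54 in MLN vs Ctrl, and that of BDKRB2 ranked 39 and 90. These 2 comparisons share the Ctrl libraries. The receptors were chosen with earlier results of these data known, so nothing is read from the ranks. The ranks were taken with the pseudocount of 0.1 only.

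With MLN4924 added to PC3-shp14ARF cells, the mean TPM of BDKRB1 was 2.81-fold lower in Both than in shARF (log2 difference −1.21, standard error 0.41). That of BDKRB2 was 2.63-fold lower (log2 difference −0.54, standard error 0.32), with overlapping libraries. Over the alternatives these log2 differences ran from −1.55 to −0.42 for BDKRB1 and from −1.13 to −0.09 for BDKRB2. Against MLN, the mean TPM in Both was 12.3-fold lower for BDKRB1 (log2 difference −3.21, standard error 0.39) and 14.5-fold lower for BDKRB2 (−2.35, standard error 0.25). At these levels the log2 values turned on the pseudocount, and over the alternatives they ran from −3.70 to −1.65 for BDKRB1 and from −3.65 to −0.64 for BDKRB2. The drug response on the log2 scale was therefore smaller in PC3-shp14ARF cells, by 2.67 (standard error 0.46) for BDKRB1 and 2.97 (standard error 0.40) for BDKRB2, where the shARF levels were already below 1 TPM. The ratio of BDKRB1 to BDKRB2 was 5.19 to 5.45 in Ctrl and 3.99 to 5.38 in MLN, and scattered from 2.17 to 14.9 in shARF and 3.31 to 8.69 in Both, where BDKRB2 was below 0.2 TPM.

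PLA2G4A, which supplies the arachidonic acid, was among the more abundant transcripts. It was at 94.1, 89.7 and 91.0 TPM in Ctrl and at 39.4, 35.9 and 33.8 in MLN. In shARF it was at 11.005, 10.6 and 11.98 TPM, and in Both at 16.2, 18.0 and 16.0. No 2 conditions overlapped, and Both lay above shARF, unlike the order of BDKRB1. The mean was 2.52-fold lower in MLN than in Ctrl (log2 difference −1.33, standard error 0.065) and 8.17-fold lower in shARF than in Ctrl (−3.02, standard error 0.051). MLN4924 thus went with a lower level in PC3 cells and with a level 1.49-fold higher in PC3-shp14ARF cells (0.57, standard error 0.073), while Both was still 2.18-fold below MLN.

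The cyclooxygenase transcripts were low in PC3 cells. PTGS1 (chr9:122370530-122395703, plus strand, 11 exons), the constitutive form in most tissues, was at 0.0517 to 0.0540 TPM in Ctrl and 0.0255 to 0.0260 in MLN. It was at 0.0544 to 0.0805 TPM in shARF, and in Both it was listed at 0 in 2 libraries and at 0.0252 in the third one. Its mean lay below 0.1 TPM, and no difference was taken from these values. PTGS2, the form induced by growth factors and cytokines, was at 1.07, 0.625 and 0.605 TPM in Ctrl and at 0.392, 0.685 and 0.601 in MLN. It was listed at 0 in 2 shARF libraries and at 0.0295 TPM in the other, and was at 0.142, 0.404 and 0.249 in Both. Each shARF library was below each library of the other conditions, while Ctrl and MLN overlapped and so did Both and MLN. The size of the shARF difference cannot be fixed at these levels, since it ranged from −5.57 to −0.80 on the log2 scale with the pseudocount. PACERR, an antisense transcript at PTGS2, was listed at 0 in each of the 12 libraries.

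PTGES (chr9:129738331-129753042, minus strand, 3 exons), the inducible PGE2 synthase of the membrane, had the highest mean of the 7 genes in Ctrl. It was at 154, 129 and 122 TPM in Ctrl and at 67.2, 89.7 and 71.8 in MLN. In shARF it was at 34.6, 34.8 and 40.3 TPM, and in Both at 16.0, 14.4 and 13.6. The conditions fell in the order Ctrl, MLN, shARF, Both without overlap. The log2 differences were −0.83 (standard error 0.14) in MLN vs Ctrl, −1.88 (standard error 0.11) in shARF vs Ctrl, −1.31 (standard error 0.088) in Both vs shARF and −2.36 (standard error 0.12) in Both vs MLN. Like BDKRB1 and unlike PLA2G4A, PTGES was lower after the drug in both lines, going to 56.4% of the Ctrl mean in PC3 and from 27.1% to 10.9% of it in PC3-shp14ARF.

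The other PGE2 synthases, named here after their values were seen, spanned a narrower range than PTGES. For PTGES2, a further membrane-associated PGE2 synthase, the means in Ctrl, MLN, shARF and Both were 135 ± 8.93, 96.6 ± 7.30, 110 ± 10.3 and 77.7 ± 4.98 TPM (SD, n = 3). Those of PTGES3, the cytosolic co-chaperone p23 that also makes PGE2, were 548 ± 31.5, 566 ± 12.5, 773 ± 8.62 and 723 ± 59.4 TPM in that order. PTGES was near PTGES2 in Ctrl, at a ratio of 0.997, and the ratio was 0.788 in MLN, 0.333 in shARF and 0.189 in Both.

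**Figure D2:**
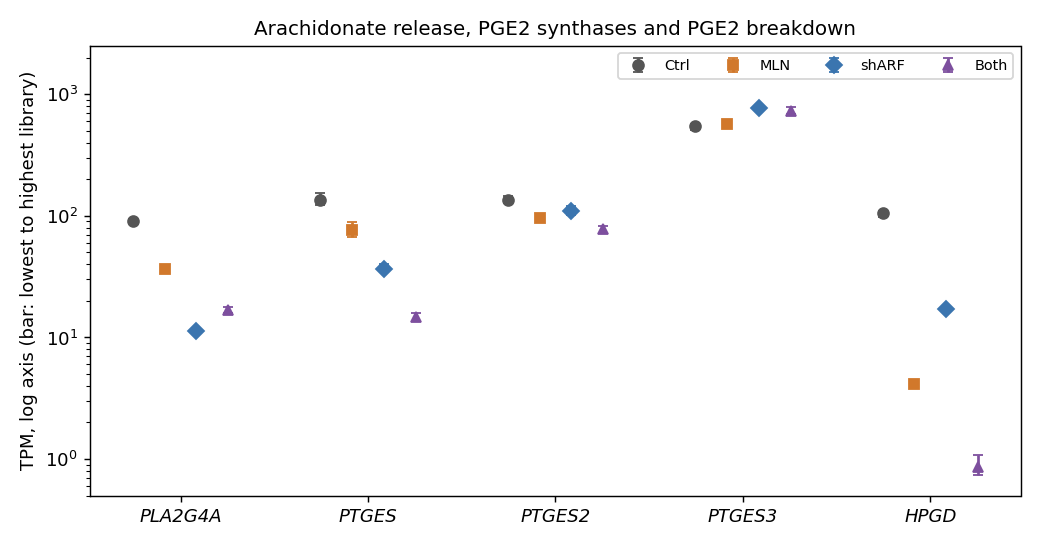
Mean TPM (log axis) of PLA2G4A, the PGE2 synthases PTGES, PTGES2 and PTGES3, and HPGD, which breaks PGE2 down, in Ctrl, MLN, shARF and Both, with bars from the lowest to the highest of the 3 libraries. PTGES was at 122 to 154 TPM in Ctrl and 13.6 to 16.0 in Both, while the means of PTGES3 lay between 548 and 773 TPM.

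PTGER4 was the one member that was higher with the drug in both lines, without overlap. It was at 9.07, 8.72 and 7.94 TPM in Ctrl and at 14.9, 14.95 and 16.3 in MLN. In shARF it was at 9.50, 8.43 and 8.21 TPM, and in Both at 12.4, 11.8 and 10.2. Ctrl and shARF overlapped, and their log2 difference of 0.02 (standard error 0.084) changed sign under 3 alternatives. The mean was 1.79-fold higher in MLN than in Ctrl (log2 difference 0.84, standard error 0.076) and 1.31-fold higher in Both than in shARF (0.39, standard error 0.099), and 1.34-fold lower in Both than in MLN. PTGER4 lies at chr5:40679915-40693735 on the plus strand, within TTC33 on the opposite strand, and the strand of the counting is not stated in the sources used here. The means of TTC33 in Ctrl, MLN, shARF and Both were 9.79 ± 0.840, 12.7 ± 0.921, 8.001 ± 0.426 and 11.8 ± 1.45 TPM (SD, n = 3), and its part in the PTGER4 values was not tested.

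Across the 6 members that passed the filter, 4 were lower without overlap in MLN than in Ctrl, 1 was higher and 1 overlapped, beside 32.4% of all genes lower and 34.6% higher without overlap. In shARF vs Ctrl 5 were lower, 0 higher and 1 overlapped, against 25.8% and 27.3% of all genes. In Both vs shARF 2 were lower, 3 higher and 1 overlapped (36.5% and 30.6% of all genes), and in Both vs MLN 5 were lower, 0 higher and 1 overlapped (28.9% and 18.8%). Log2 differences below −2 were seen for 2 members in MLN vs Ctrl (3.54% of all genes), 4 in shARF vs Ctrl (2.37%), 0 in Both vs shARF (3.91%) and 3 in Both vs MLN (2.14%). The median of the members was −1.08, −2.99, −0.08 and −1.73 in these 4 comparisons, where that of all genes was 0.05, 0, −0.04 and −0.08. Since these genes were chosen on such values, nothing is read from these counts.

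**Figure D3:**
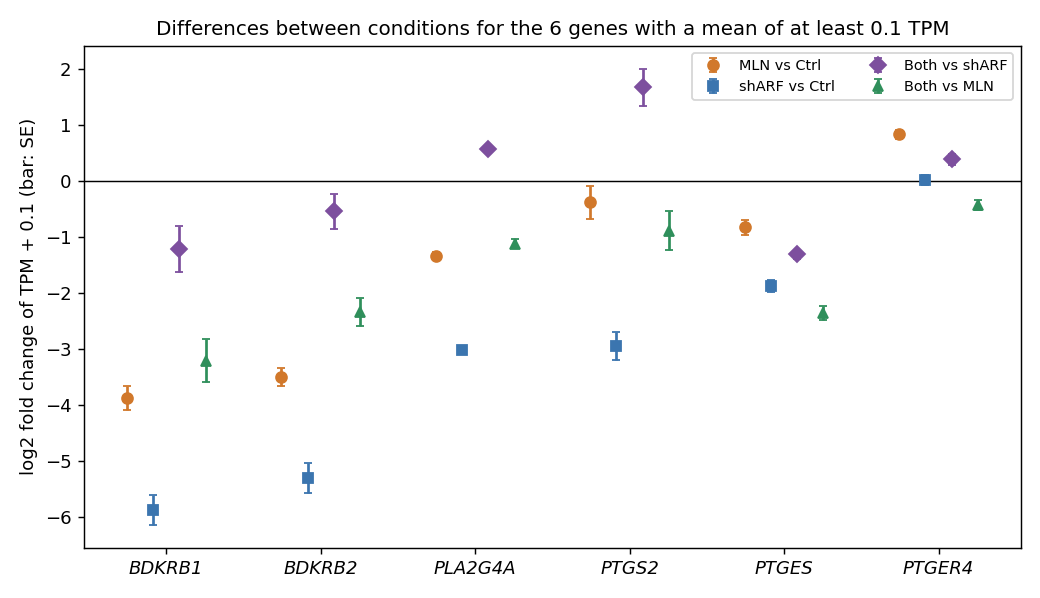
Log2 fold change of TPM + 0.1 (points, with bars of 1 standard error) of the 6 genes that passed the filter, for MLN vs Ctrl, shARF vs Ctrl, Both vs shARF and Both vs MLN. BDKRB1 and BDKRB2 lay at −5.88 and −5.32 in shARF vs Ctrl, and PLA2G4A was below 0 in MLN vs Ctrl and above 0 in Both vs shARF.

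The genes whose 12 centred log2 values lay nearest to a member, by root mean square distance over 14663 genes averaging at least 1 TPM, were ASB2 (0.584), BDKRB2 (0.622) and IGF2 (0.633) for BDKRB1. For BDKRB2 they were PDZK1IP1 (0.554), SHH (0.605) and ASB2 (0.606). For PLA2G4A they were PTX3 (0.170), SIRPB1 (0.182) and BRINP2 (0.198), and for PTGES FIBCD1 (0.231), C11orf45 (0.263) and FOXA2 (0.270). For PTGER4 they were ARPC5L (0.0763), ATXN1L (0.0767) and BMI1 (0.0775). PTX3, a secreted pattern recognition protein, averaged 90.9, 33.1, 10.01 and 14.6 TPM in Ctrl, MLN, shARF and Both, the same order as PLA2G4A. Of the genes compared, 1 was nearer to BDKRB1 than BDKRB2 was, and 4 were nearer to BDKRB2 than BDKRB1 was. Other members lay further apart, with 223 genes nearer to PLA2G4A than PTGES and 9579 nearer to BDKRB1 than PTGER4. The receptors were chosen with earlier results known and were below 1 TPM in shARF and Both, so nothing is read from their nearness. ASB2, a substrate adaptor of cullin ubiquitin ligases, was listed at 0 in each Both library.

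The wider pathway was tested gene by gene (limma, adjusted over all genes), and HPGD, AKR1B1, AKR1C3 and PTGR1 were among the genes that changed in both drug comparisons. Of 77 genes in 6 lists with the members left out, 51 were tested. These lists were chosen with earlier results of these data known, so nothing is read from the counts beside the shares of all genes. In MLN vs Ctrl 39 of them changed, 19 up and 20 down, where 61.6% of all genes tested changed, 32.2% up and 29.4% down. In Both vs shARF 37 changed, 18 up and 19 down (61% of all genes, 28.3% up and 32.8% down). In shARF vs Ctrl 28 changed, 11 up and 17 down (41.4% of all genes, 21% up and 20.4% down), and in Both vs MLN 26 changed, 10 up and 16 down (32.4%, 11.8% up and 20.6% down). The Both vs MLN count was 15 without MLN replicate 2, 14 without MLN replicate 5 and 15 without Both replicate 2. The response to MLN4924 differed between the lines for 22 of the 51 genes, 12 with a more positive and 10 with a more negative response in PC3-shp14ARF cells, where the share over all genes was 28.3% (11.2% and 17.1%). The median log2 difference of the 51 genes was −0.04, −0.12, −0.11 and −0.17 in MLN vs Ctrl, shARF vs Ctrl, Both vs shARF and Both vs MLN.

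**Figure D4:**
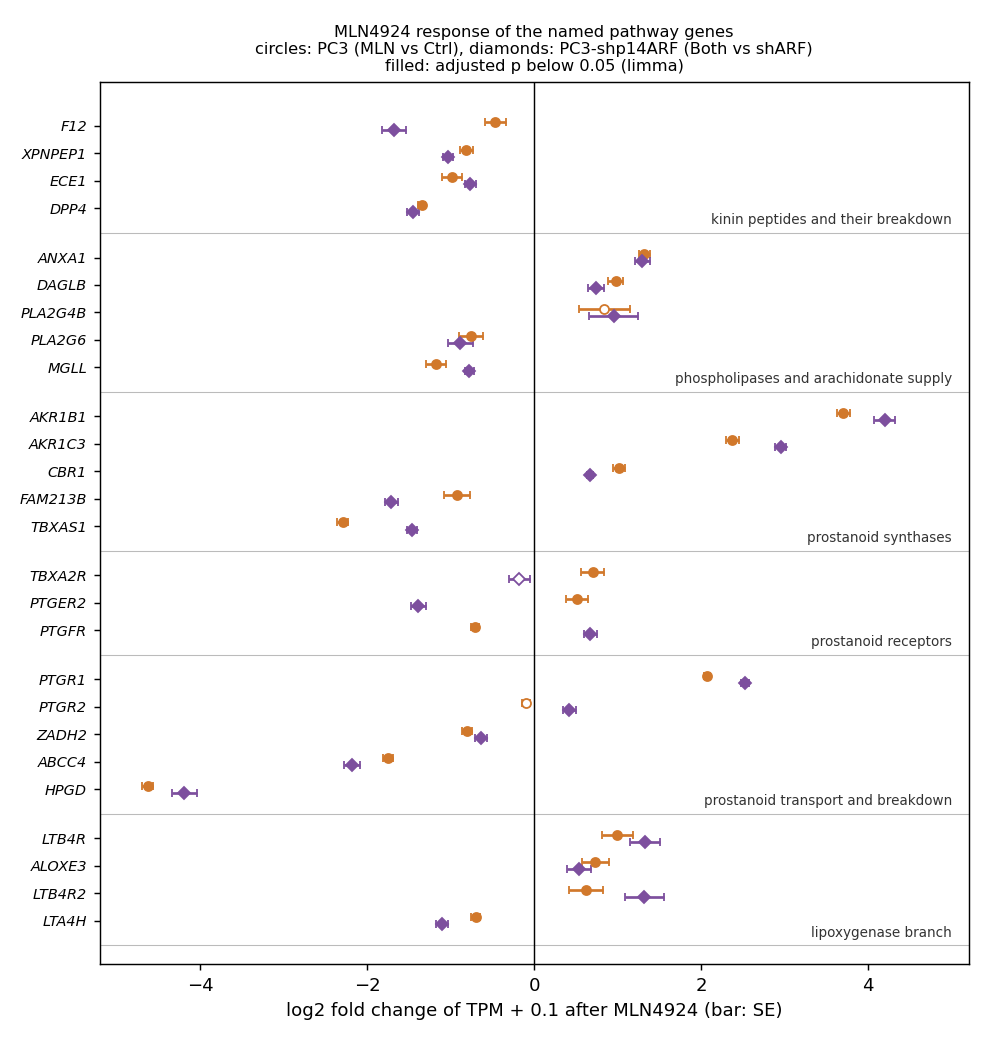
Log2 fold change of TPM + 0.1 after MLN4924 (x axis, with bars of 1 standard error) of the 26 named pathway genes in 6 lists, with circles for PC3 (MLN vs Ctrl) and diamonds for PC3-shp14ARF (Both vs shARF), filled where the limma adjusted p was below 0.05. AKR1B1, AKR1C3 and PTGR1 lay far to the right and HPGD far to the left for both lines, and PTGER2 and PTGFR lay on opposite sides of 0.

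Of the 5 tested genes that carry or break down prostanoids, 1 rose and 3 fell in MLN vs Ctrl, and 2 rose and 3 fell in Both vs shARF. HPGD, the dehydrogenase that inactivates PGE2, was at 98.2, 109.5 and 106.7 TPM in Ctrl and at 4.11, 4.41 and 3.93 in MLN. In shARF it was at 16.9, 17.4 and 17.2 TPM, and in Both at 0.758, 1.07 and 0.740. It fell in each of the 4 comparisons, with log2 differences of −4.63 for MLN vs Ctrl (standard error 0.068, limma adjusted p = 9.76e-07) and −2.60 for shARF vs Ctrl (limma adjusted p = 1.47e-05). The enzyme PTGR1, which reduces the inactive products further, rose from 59.8 ± 1.04 to 251 ± 3.57 TPM in PC3 cells and from 47.7 ± 0.529 to 275 ± 14.5 in PC3-shp14ARF cells, and its response differed by 0.46 (limma adjusted p = 0.00045). The efflux pump ABCC4 fell with the drug from 34.6 to 10.2 TPM in PC3 cells and from 42.6 to 9.38 in PC3-shp14ARF cells.

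Of the 7 tested prostanoid synthases, 3 rose and 3 fell in MLN vs Ctrl. AKR1B1 and AKR1C3, which make prostaglandin F2 alpha, rose with the drug in both lines. AKR1B1 rose from 4.10 ± 0.0813 to 54.7 ± 4.77 TPM in PC3 cells (log2 difference 3.70, limma adjusted p = 2.02e-06) and from 2.46 ± 0.456 to 46.4 ± 1.23 in PC3-shp14ARF cells (4.196, limma adjusted p = 4.43e-06). AKR1C3 rose from 12.7 to 66.3 TPM in PC3 cells and from 12.5 to 97.2 in PC3-shp14ARF cells. The thromboxane synthase TBXAS1 fell from 39.7 to 8.04 TPM in PC3 cells and from 35.2 to 12.7 in PC3-shp14ARF cells, and its fall was smaller in the latter by 0.83 (limma adjusted p = 7.36e-05). CBR1, a carbonyl reductase of prostaglandins, rose from 179 to 363 TPM and from 172 to 273.

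PTGER2 and PTGFR responded to the drug in opposite directions in the lines. PTGER2, the EP2 receptor of PGE2 and like PTGER4 coupled to cyclic AMP, rose from 9.75 ± 1.48 to 13.9 ± 1.21 TPM in PC3 cells (limma adjusted p = 0.0154) and fell from 24.6 ± 1.80 to 9.33 ± 0.839 in PC3-shp14ARF cells (5.05e-05). The rise was lost without MLN replicate 2 (adjusted p = 0.0501) or replicate 5 (0.0578). The difference of the responses was −1.90 (standard error 0.16, limma adjusted p = 7.66e-06). Without the drug PTGER2 was higher in shARF than in Ctrl (log2 difference 1.33, limma adjusted p = 0.00128), whereas the PTGER4 libraries of these conditions overlapped. PTGFR, the receptor of prostaglandin F2 alpha, fell from 32.4 ± 1.07 to 19.8 ± 0.532 TPM in PC3 cells and rose from 20.3 ± 0.946 to 32.5 ± 2.80 in PC3-shp14ARF cells, and the difference was 1.38 (standard error 0.097, limma adjusted p = 1.57e-06). TBXA2R, the thromboxane receptor, rose in MLN vs Ctrl from 5.86 to 9.56 TPM (adjusted p = 0.00554, limma), and its difference in Both vs shARF did not pass the test (0.269).

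Of the 12 tested genes of kinin peptides and their breakdown, 4 rose and 7 fell in MLN vs Ctrl, and the same counts held in Both vs shARF. The peptidases DPP4, XPNPEP1 and ECE1, which can cut kinins, fell with the drug in both lines. DPP4 went from 97.2 to 38.2 TPM in PC3 cells and from 189.5 to 69.4 in PC3-shp14ARF cells, and it was higher in shARF than in Ctrl (log2 difference 0.96, limma adjusted p = 5.79e-05). F12, the clotting factor that starts kinin release in plasma, fell from 30.2 to 9.39 TPM in Both vs shARF (limma adjusted p = 0.00017) and less from Ctrl to MLN, from 22.97 to 16.7, with a difference of −1.21 (limma adjusted p = 0.000665).

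Of the 15 tested phospholipase and arachidonate supply genes, 5 rose and 4 fell in MLN vs Ctrl and in Both vs shARF. ANXA1, which restrains phospholipase A2, rose with the drug from 239 to 596 TPM in PC3 cells (log2 difference 1.32, limma adjusted p = 2.03e-05) and from 282 to 694 in PC3-shp14ARF cells. MGLL, a monoacylglycerol lipase, fell from 48.6 to 21.5 TPM in MLN and from 30.6 to 17.8 in Both. DAGLB, a diacylglycerol lipase, rose from 16.9 to 33.5 TPM and from 15.5 to 25.9. Of the 7 tested lipoxygenase branch genes, 3 rose and 2 fell in MLN vs Ctrl. LTA4H, which makes leukotriene B4, fell from 95.9 to 59.0 TPM in PC3 cells and from 102 to 47.3 in PC3-shp14ARF cells. LTB4R, a leukotriene B4 receptor that overlaps LTB4R2, rose from 5.16 to 10.5 TPM and from 6.51 to 16.3. Where genes overlap, reads could be shared between them.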

How the data were processed

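RNA-seq of PC3 and PC3-shp14ARF cells was grouped by the sample labels into Ctrl, MLN, shARF and Both, and the deposited table gives 3 columns for each of the 4 samples, called replicates in the paper's material. Whether these were separate cultures is not stated, so the spread between libraries, and each p-value, may be technical. The deposited table holds TPM per gene, with no filter on low values. The authors trimmed the reads, mapped them to hg38 and quantified them on an Ensembl GRCh38 annotation. The labels and the paper name different RNA extraction kits. Each column sums to 1000000 TPM. The authors' own differential expression, made on read counts with DESeq2, was not used here.

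From TPM, log2(TPM + 0.1) was computed for genes averaging 0.1 TPM or more, and limma 3.58.1 (R 4.3.3) was fitted (eBayes with trend, Benjamini-Hochberg adjustment over the 19932 genes tested). Each pairwise comparison used its own libraries and the interaction all 12. Calls needed an adjusted p under 0.05. The 7 members, the 6 pathway lists and the motifs were chosen with earlier results of these data known. Members received no test. Pathway genes named were, per list, the up to 5 with the largest absolute log2 fold change in any pairwise comparison among genes averaging 1 TPM or more and called in at least 1 test. One gene that this rule names is not reported here and stays in the counts of its list. The 3 nearest genes were named for each member averaging 1 TPM or more. Coordinates are from GENCODE (GRCh38), another release than the authors' annotation.

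The column numbers were checked for pairing: correlations of the deviations of same-numbered libraries were between −0.147 and 0.0584. These showed no pairing, but different-numbered libraries were not compared, so the check cannot decide whether the numbers mark pairs. The alternatives tried were other pseudocounts (1 and 0.01), other filters (1 TPM, or none), median-of-ratios scaling, all 12 libraries in one fit, eBayes without trend, the replicate block and each replicate left out. TPM keeps no read depth, so no counting error could be given.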

Additional observations from a re-analysis of the deposited data

Results flagged for a closer look

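The response to MLN4924 differed between PC3 and PC3-shp14ARF cells (limma, interaction over the 12 libraries, adjusted p below 0.05) for 14 named pathway genes. These were named for the size of their changes, so their number is not to be read against the share of all genes. On the log2 scale, positive where the response was more positive in PC3-shp14ARF cells, the difference was −1.90 for PTGER2, −1.21 for F12, −0.88 for TBXA2R, −0.79 for FAM213B, −0.43 for ABCC4, −0.40 for LTA4H and −0.35 for CBR1. It was 1.38 for PTGFR, 0.83 for TBXAS1, 0.58 for AKR1C3, 0.52 for PTGR2, 0.49 for AKR1B1, 0.46 for PTGR1 and 0.40 for MGLL. The calls of AKR1B1 and MGLL were lost in 12 and 13 of 19 alternatives.

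Each PLA2G4A library was lower in MLN than in Ctrl and each was higher in Both than in shARF, a difference of 1.90 between the responses, which was not tested.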

How the results depend on the processing

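With a replicate block on the shared column numbers (limma, residual degrees of freedom 1, 1 and 4), the listed genes called went from 28 to 0 in shARF vs Ctrl, from 39 to 26 in MLN vs Ctrl and from 22 to 11 in the interaction. At an unadjusted p below 0.05 the block still gave 28 listed genes in shARF vs Ctrl and 7757 of all genes, of which 0 passed the adjustment. Whether the numbers mark pairs is not known, and no paired fit was possible for Both vs shARF and Both vs MLN, which share 1 number each. Without single replicates the Both vs MLN count of 26 was 14 to 26. The PTGER4 difference of 0.02 in shARF vs Ctrl was −0.0059 with median-of-ratios scaling, and between −0.041 and 0.063 without single replicates; the cause was not tested. With that scaling, 1 rather than 2 members were lower without overlap in Both vs shARF. The pseudocounts moved the low members most. Over pseudocounts of 1 and 0.01, BDKRB2 in shARF vs Ctrl went from −3.04 to −6.21 and PTGS2 from −0.80 to −5.57. Of the member fold changes under alternatives, 195 stayed within 1 SD, 18 moved and 3 reversed. Leaving out 1 of 3 libraries cannot shift a fold change by 1 SD, so those runs could only stay or reverse. Their part of the 195 is therefore no sign of stability. Of 93 called fits of named pathway genes, 56 were called in every alternative, 77 with the block left aside, and 0 reversed. The depth is unknown, so values near 0 could not be given an interval.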
